A study of Mus musculus with 22 samples.

Results

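The genes described here are 9 genes of glycogen metabolism in sorted mouse brain cells: Ppp1r3g, Ppp1r3c and Ppp1r3d, Ugp2, Gys1 and Gbe1, and Pygb, Pygm and Pygl. They were taken by gene symbol from the probe annotation, and they make up 9 of the 22485 genes that the arrays measured, with 11 of the 33026 probes that carry 1 gene symbol. Where a gene had several probes, the main probe was chosen by the highest mean log2 intensity over all 22 samples, which decided between 2 probes for Gys1 and for Ugp2. The set was put together with earlier results of these data known, among them the astrocyte value of Ppp1r3g, so that gene's genotype difference in astrocytes is a description and carries no p-value.

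Astrocytes and microglia were sorted from the cortex of APP/PS1 mice and of wild-type mice (WT) and hybridised to dual-colour Agilent arrays. APP/PS1 (APPswe/PS1dE9) is a transgenic model of amyloid deposition, and its mice, like the WT mice, were of the C57BL/6 strain and 15 to 18 months of age. Astrocytes came as 4 samples per genotype and microglia as 7. In all groups the cells were negative for myelin and O4, and dead cells were gated out. Astrocytes were then taken as positive for the glutamate transporter GLT1 and negative for CD11b, and microglia as positive for CD11b and CD45. An APP/PS1 sample shared its array with the equally numbered WT sample of its cell type, 1 in each of the 2 channels, and the dyes were swapped on some arrays. Values are log2 intensities as deposited, and each difference below is a log2 difference, APP/PS1 minus WT, with its standard error. The number of arrays, 4 and 7, limits its precision. That error rests on 1 spread per gene shared by both cell types, so in astrocytes it is not the spread of the 4 arrays alone. Calls with astrocytes fitted alone are given at the end, and those with microglia fitted alone are not given. Intensities of different probes were not compared with each other.

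Glycogen is the brain's main stored form of glucose, and in the adult brain it lies mostly in astrocytes. Ugp2 encodes the enzyme that makes UDP-glucose, the building block; glycogen synthase (Gys1 outside the liver) adds it to the growing chain, and the branching enzyme Gbe1 introduces branch points. Glycogen phosphorylases release glucose 1-phosphate from the chain ends, and they come as brain (Pygb), muscle (Pygm) and liver (Pygl) forms. The proteins of the Ppp1r3 genes bring protein phosphatase 1 to glycogen, where it activates the synthase and inactivates phosphorylase.

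Before the results, 3 features of the samples bear on them. The 8 astrocyte samples were rich in the marker RNAs of their type and the 14 microglia samples in theirs: Slc1a2, the gene of the sorting antigen GLT1, lay at 13.96 to 15.77 in APP/PS1 astrocytes and 15.70 to 16.20 in WT astrocytes, against 5.12 to 6.63 in APP/PS1 microglia and 6.08 to 7.70 in WT microglia. APP/PS1 and WT astrocyte samples differed in markers of several cell types, as given with the astrocyte results. WT microglia replicate 3 stood apart in neutrophil genes, which bears on Pygl. The Y-linked gene Eif2s3y differed between the 2 samples of 3 arrays, the arrays of astrocyte replicates 1 and 3 and of microglia replicate 1. On all 3 the APP/PS1 sample was high (9.64, 9.63 and 10.54) and the WT sample low (4.58, 4.54 and 4.47), so the mismatch ran with genotype. Every WT astrocyte sample was low. Differences with only the matched arrays are given where a call depends on them.

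The promoter sequences of the 3 phosphatase subunits and of glycogen synthase are printed because these genes had the largest genotype differences among the 9 or opposite differences in the 2 cell types. Each is the 250 bases before the transcription start, 5′ to 3′ on the gene's strand, from RefSeq on GRCm38.p6. Capitals mark ACGTG and GCGTG (the core of the hypoxia response element), CACGTG (the E-box, which contains ACGTG) and TGACG (the core of the cAMP response element), on either strand. The windows are chr13:35967656-35967905 on the + strand for Ppp1r3g, chr19:36736605-36736854 on the − strand for Ppp1r3c, chr2:178414464-178414713 on the − strand for Ppp1r3d and chr7:45434589-45434838 on the + strand for Gys1. The start used for Ppp1r3g lies inside the annotated gene span (chr13:35958824-35970388).
Ppp1r3g: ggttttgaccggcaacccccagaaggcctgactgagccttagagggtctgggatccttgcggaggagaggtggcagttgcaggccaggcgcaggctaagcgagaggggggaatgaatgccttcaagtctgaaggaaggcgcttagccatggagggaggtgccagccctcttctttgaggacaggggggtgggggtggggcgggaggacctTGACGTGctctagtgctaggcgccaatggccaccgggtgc
Ppp1r3c: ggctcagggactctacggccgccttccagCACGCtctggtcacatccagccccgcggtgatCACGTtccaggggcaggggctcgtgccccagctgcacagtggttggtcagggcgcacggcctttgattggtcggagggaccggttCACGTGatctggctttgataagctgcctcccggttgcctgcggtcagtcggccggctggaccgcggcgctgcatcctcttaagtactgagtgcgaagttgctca
Ppp1r3d: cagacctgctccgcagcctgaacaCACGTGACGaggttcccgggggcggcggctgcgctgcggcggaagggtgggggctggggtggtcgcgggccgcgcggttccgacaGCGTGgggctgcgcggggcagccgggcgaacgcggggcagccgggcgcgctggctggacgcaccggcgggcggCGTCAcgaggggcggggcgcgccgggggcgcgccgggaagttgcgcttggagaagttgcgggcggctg
Gys1: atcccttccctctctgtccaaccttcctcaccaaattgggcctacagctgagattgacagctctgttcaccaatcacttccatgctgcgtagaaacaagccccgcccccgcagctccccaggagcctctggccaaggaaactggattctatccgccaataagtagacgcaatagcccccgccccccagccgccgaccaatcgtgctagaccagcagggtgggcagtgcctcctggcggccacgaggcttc
All 9 genes matched a promoter entry, 10 windows in all, since Ugp2 has 2. ACGTG was found in 7 of 9 genes, against 16.6% of 32851 mouse promoter windows of the same length, GCGTG in 6 of 9 against 28.2%, TGACG in 4 of 9 against 17.8% and the E-box in 2 of 9, Ppp1r3c and Ppp1r3d, against 6.02%. Gys1 and Gbe1 had none of these letters in their windows. A match describes the letters of the window and is neither a binding site nor a cause.

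In WT cells all 9 genes were higher in astrocytes than in microglia, past a limma p of 0.05 adjusted by Benjamini-Hochberg over all genes tested. Of all 22395 genes, 53.3% passed, 35.3% higher in astrocytes and 18.0% higher in microglia. Ppp1r3g lay at 13.71 ± 0.42 in WT astrocytes (SD, n = 4) and at 4.58 ± 0.99 in WT microglia (SD, n = 6), a fitted difference of 9.13 ± 0.43. Its microglia values were dim, between 2.84 and 5.68 and below the sample medians of 6.24 to 6.26, and in the range of Eif2s3y in the microglia samples low for that Y-linked gene (1.43 to 4.47) or little above it. The values used here carry no call of signal over background, so the size of this difference rests on a level that may not be above background. For Ppp1r3c the difference was 7.60 ± 0.32, and its WT microglia values, 4.16 to 6.07, were also dim and below the sample medians. A middle group, Ppp1r3d, Gys1, Pygb, Pygm and Ugp2, differed by 3.09 to 3.73, and Gbe1 by 1.19 ± 0.19. Pygl differed by 1.26 ± 0.40 (adjusted p = 0.012 by limma), a call that was lost with slide as a random block (adjusted p = 0.213). The 4 astrocyte arrays shared a slide that held no microglia, so in these values the cell type cannot be told apart from the slide. WT astrocyte samples were also higher than WT microglia samples in 10 of 11 endothelial markers (median 5.49, 1 lower). Of 9 mural markers 8 were higher and 0 lower (median 5.69). The part of these vascular transcripts in the differences of the 9 genes was not tested. Another targeting subunit, Ppp1r3b, known as the liver form, was on the microglial side (-4.11 ± 0.17, astrocytes minus microglia).

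**Figure D1:**
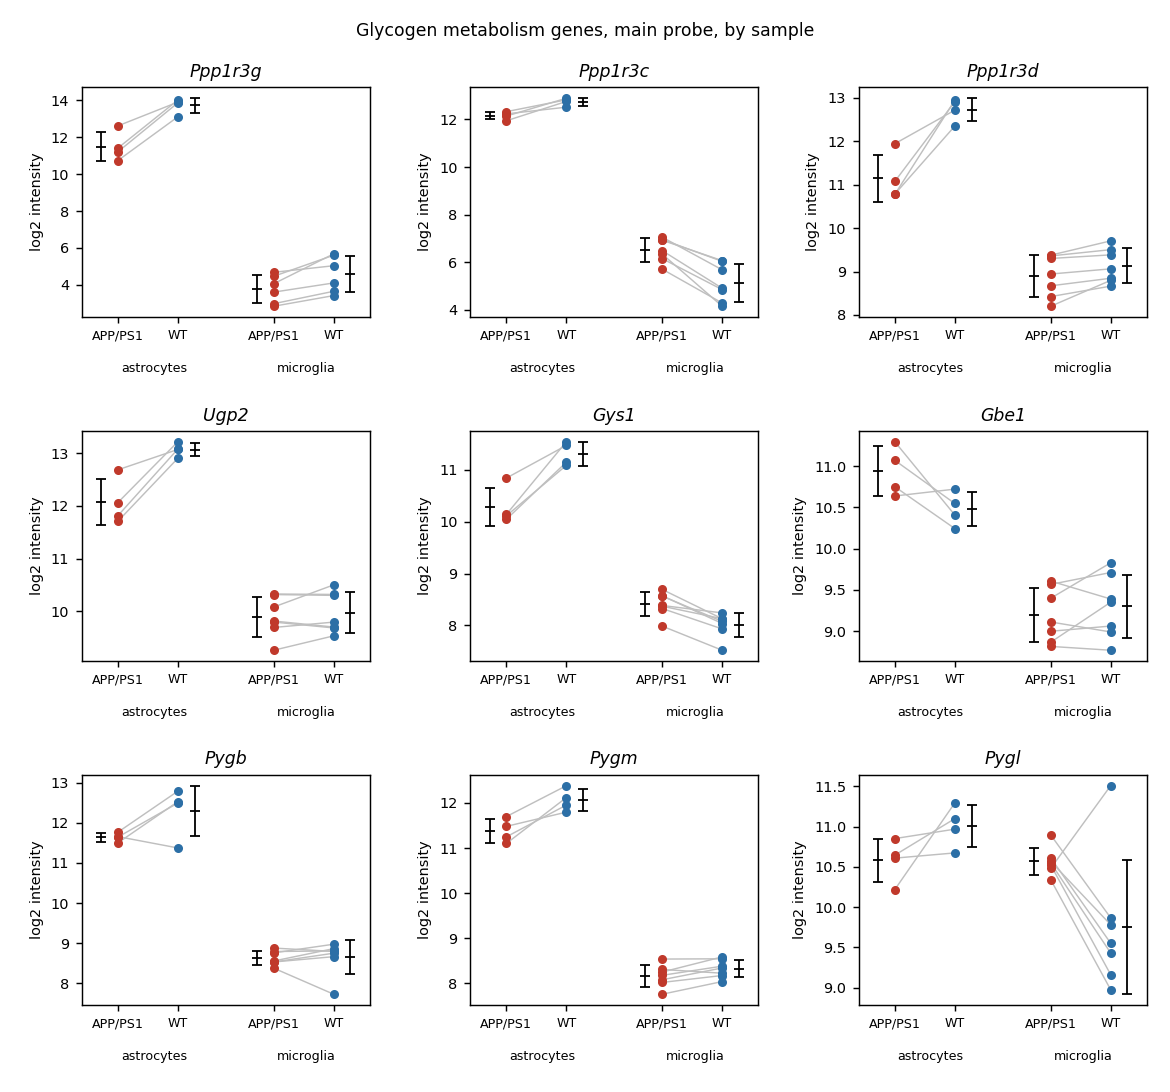
Log2 intensity of the main probe of each of the 9 genes (vertical axis, a separate range for each gene) in APP/PS1 (red) and WT (blue) astrocytes and microglia. Points are samples, grey lines join the 2 samples of an array, and black bars are the mean ± SD of a group; the WT astrocyte mean lies above the WT microglia mean for all 9 genes, with Pygl overlapping through WT microglia replicate 3, and Ppp1r3g was blank in microglia replicate 5.

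Beside Ppp1r3g, APP/PS1 astrocytes had lower levels of 6 of the other 8 genes and a higher level of 1, Gbe1. Over all genes 33.4% passed the same threshold in astrocytes, 18.0% lower and 15.4% higher. The median difference of the 8 genes was -0.67, against -0.07 over all genes. On the main probes the APP/PS1 and WT astrocyte groups did not overlap for 5 of these 8, Ppp1r3c, Ppp1r3d, Gys1, Pygm and Ugp2, against 17.3% of all genes. Among the APP/PS1 astrocyte samples, replicate 3 had the highest value for 6 of the 9 genes.

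The targeting subunit Ppp1r3g is known in liver for a brief rise after feeding that favours glycogen synthesis. It stood at 10.73, 11.40, 12.61 and 11.20 in APP/PS1 astrocytes, against 13.10, 14.01, 13.89 and 13.86 in WT astrocytes. Every APP/PS1 astrocyte sample lay below every WT one, with APP/PS1 replicate 3 nearest to them. The difference was -2.23 ± 0.21, a level 4.68-fold lower, and it ranged from -2.65 to -1.29 over the 4 arrays.

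Ppp1r3d, a broadly expressed targeting subunit, had values of 10.78, 11.07, 11.94 and 10.77 in APP/PS1 astrocytes, against 12.35, 12.91, 12.71 and 12.94 in WT astrocytes. The groups did not overlap, and again APP/PS1 replicate 3 was the highest of its group. Ppp1r3d fell by 1.58 ± 0.19 on the log2 scale, a level 2.996-fold lower (limma adjusted p = 3.19e-04).

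Ppp1r3c encodes the subunit also called protein targeting to glycogen (PTG). It lay at 12.33, 11.94, 12.23 and 12.14 in APP/PS1 astrocytes, against 12.82, 12.75, 12.51 and 12.89 in WT astrocytes. The groups were separate but close. The difference of -0.58 ± 0.19 passed narrowly (limma adjusted p = 0.0412). This call did not hold without any one of the 4 astrocyte arrays (adjusted p between 0.0574 and 0.149, differences -0.67 to -0.50) or after quantile normalization (adjusted p = 0.0686). It was also lost without microglia replicate 2, 4, 5 or 6 (adjusted p between 0.0543 and 0.0575) and on the 2 astrocyte arrays matched in Eif2s3y (-0.78, adjusted p = 0.101).

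In the synthesis branch, Ugp2 had 11.71, 12.06, 12.69 and 11.81 in APP/PS1 astrocytes, against 12.91, 13.22, 13.07 and 13.08 in WT astrocytes. Gys1, the synthase itself, had 10.11, 10.14, 10.84 and 10.04 in APP/PS1 astrocytes, against 11.08, 11.54, 11.47 and 11.14 in WT astrocytes. On the main probes neither gene's groups overlapped, and in both APP/PS1 replicate 3 was the highest of its group. Ugp2 fell by 1.00 ± 0.15 on the log2 scale (limma adjusted p = 8.52e-04) and Gys1 by 1.03 ± 0.12 (limma adjusted p = 3.04e-04), levels 2.00-fold and 2.04-fold lower. The second probes gave -0.98 ± 0.13 for Ugp2 and -0.86 ± 0.14 for Gys1. On the second Ugp2 probe the groups overlapped, with APP/PS1 replicate 3 at 11.897 above WT replicate 4 at 11.785.

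Gbe1 went the other way. It had 10.64, 11.07, 10.75 and 11.29 in APP/PS1 astrocytes, against 10.72, 10.55, 10.24 and 10.41 in WT astrocytes. The groups overlapped, and APP/PS1 was higher on 3 of 4 arrays. Gbe1 rose by 0.46 ± 0.12 (limma adjusted p = 0.0136), and the call was lost without astrocyte replicate 2 (0.35, adjusted p = 0.0773) or replicate 4 (0.38, adjusted p = 0.0677). On the arrays matched in Eif2s3y its difference was 0.70 (adjusted p = 0.013).

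Of the phosphorylases, Pygm, the form in which the brain's astrocytes are known to be rich beside Pygb, stood at 11.48, 11.10, 11.70 and 11.25 in APP/PS1 astrocytes, against 11.79, 12.12, 12.38 and 11.95 in WT astrocytes. Pygb had 11.50, 11.77, 11.66 and 11.64 in APP/PS1 astrocytes, against 12.53, 12.79, 11.37 and 12.49 in WT astrocytes. Pygm's groups did not overlap, whereas for Pygb WT replicate 3 was the lowest of all 8 samples. Pygm fell by 0.68 ± 0.12 on the log2 scale (limma adjusted p = 0.00165), a call lost with astrocytes fitted alone (adjusted p = 0.0683). Pygb fell by 0.65 ± 0.20 (limma adjusted p = 0.0279), on 3 of 4 arrays, a call lost without astrocyte replicate 1, 2 or 4 (adjusted p between 0.106 and 0.129).

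Pygl had 10.61, 10.64, 10.85 and 10.22 in APP/PS1 astrocytes, against 10.67, 11.10, 10.97 and 11.29 in WT astrocytes. These groups overlapped. The difference of -0.43 ± 0.35 did not pass (limma adjusted p = 0.394), although APP/PS1 was lower on 4 of 4 arrays. Without astrocyte replicate 4 it was -0.13 (adjusted p = 0.844). The standard error shares its spread with microglia, where the SD of the Pygl array differences was 0.84, against 0.46 over the 4 astrocyte arrays.

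**Figure D2:**
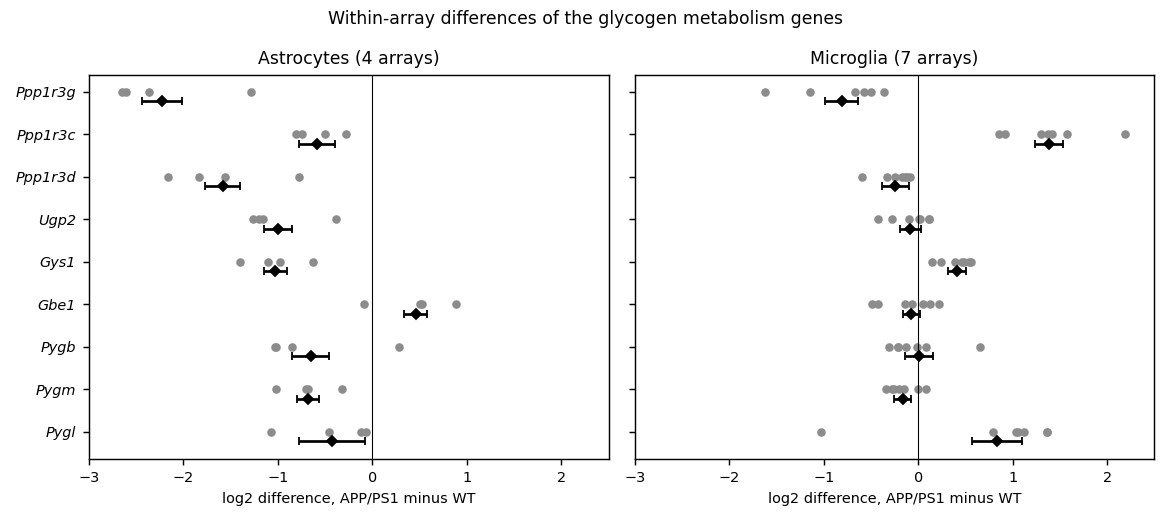
Difference in log2 intensity, APP/PS1 minus WT, within each array (grey points, horizontal axis) for the 9 genes in astrocytes (left, 4 arrays) and microglia (right, 7 arrays); black diamonds are the fitted difference and bars its standard error. In astrocytes Ppp1r3g lies farthest below 0 at -2.23 and Gbe1 above it at 0.46, and in microglia Ppp1r3c lies farthest above 0 at 1.39.

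The marker content of the astrocyte samples moved with genotype as well. Of 16 astrocyte markers, 15 were lower and 1 was higher in APP/PS1 astrocytes, with a median of -1.31. The higher one was Gfap, an intermediate filament gene (1.90 ± 0.18). Their mean over the 14 markers with values in every sample was 12.69 to 14.46 in APP/PS1 samples and 14.52 to 14.77 in WT samples. Of 14 microglia markers, 12 were higher and 1, Itgam, was lower (median 1.90; means of 8.59 to 10.83 in APP/PS1 samples and 6.88 to 8.39 in WT samples). Endothelial markers were higher for 10 of 11 (means of 13.08 to 13.93 in APP/PS1 samples and 12.13 to 13.01 in WT samples) and mural markers for 6 of 9 (means of 11.21 to 13.08 in APP/PS1 samples and 9.61 to 11.63 in WT samples). Markers of oligodendrocyte precursors were lower for 3 of 6 and higher for none (median -0.84, means of 7.73 to 8.94 in APP/PS1 samples and 9.05 to 9.44 in WT samples). The 3 were Cspg5, Olig1 and Olig2, which were also higher in WT astrocytes than in WT microglia (8.52, 4.67 and 4.71). Pdgfra (0.55), Sox10 (-0.21) and Gpr17 (-0.34) did not pass between the genotypes. No marker was blank in every sample of a group. In sorted cells measured in bulk, fewer astrocytes in a sample and less RNA of a gene per astrocyte cannot be told apart. By array, replicates 1 to 4, the median difference of the 9 glycogen genes was -0.97, -1.02, -0.39 and -1.08, and that of the astrocyte markers -2.07, -1.51, -0.32 and -1.44. Both lists were closest to 0 on the array of replicate 3. The part of these marker shifts in the glycogen results was not tested.

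**Figure D3:**
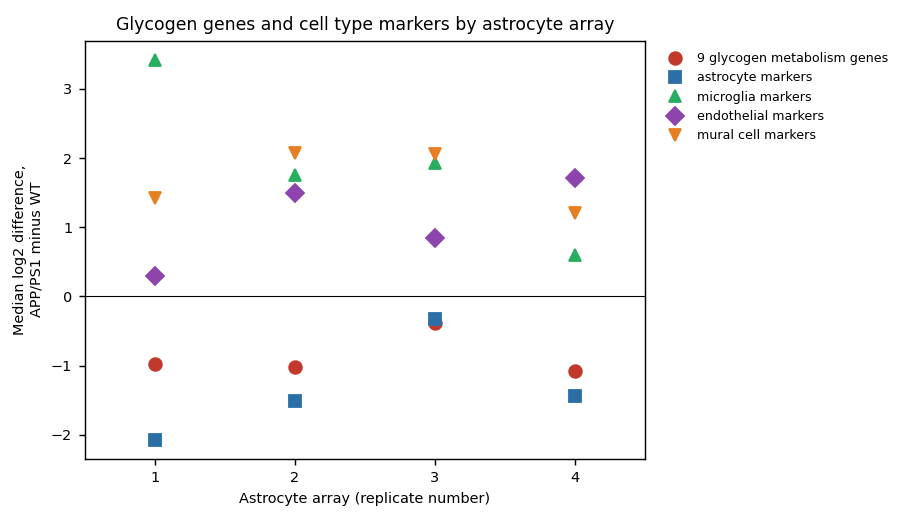
Median log2 difference, APP/PS1 minus WT, of the 9 glycogen genes and of 4 lists of cell type markers (vertical axis) on each of the 4 astrocyte arrays (horizontal axis, replicate number). The glycogen genes and the astrocyte markers are below 0 on 4 of 4 arrays and nearest to it on array 3 (-0.39 and -0.32), and the microglia, endothelial and mural markers are above 0 on all 4.

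In microglia 3 of the 9 genes passed, Ppp1r3c and Gys1 higher and Ppp1r3g lower in APP/PS1 cells, against 19.7% of all genes, 8.27% higher and 11.4% lower. The median difference of the 9 was -0.07, against -0.04 over all genes. No gene of the 9 had groups free of overlap, against 6.99% of all genes. Levels in microglia varied from array to array in both channels.

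Ppp1r3c had values, replicates 1 to 7, from 5.71 to 7.06 with a median of 6.49 in APP/PS1 microglia, against 4.16 to 6.07 with a median of 4.91 in WT microglia. The ranges overlapped, yet APP/PS1 was higher on 7 of 7 arrays, by 0.86 to 2.19. It rose by 1.39 ± 0.15, 2.61-fold (limma adjusted p = 1.71e-04). All its WT microglia values lay below the sample medians of 6.24 to 6.26. The size of the rise thus rests on a dim level that may not be above background. Within the slide of 4 microglia arrays it passed as well, and within the slide of 3 the difference was 1.13 (adjusted p = 0.11 by limma).

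Gys1 lay at 7.99 to 8.69 with a median of 8.38 in APP/PS1 microglia, against 7.52 to 8.24 with a median of 8.08 in WT microglia. It too was higher on 7 of 7 arrays, by 0.14 to 0.56. The rise was 0.41 ± 0.09 (limma adjusted p = 0.0108), and the second probe gave 0.66 ± 0.11 (limma adjusted p = 0.00209). Within the slides the differences were 0.31 and 0.52, neither past the threshold (adjusted p = 0.157 and 0.143).

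Ppp1r3g was dim in microglia and blank in both samples of replicate 5. It had 2.84 to 4.68 with a median of 3.84 in the 6 APP/PS1 samples, against 3.42 to 5.68 with a median of 4.57 in the 6 WT samples. APP/PS1 was lower on 6 of 6 arrays, and the gene fell by 0.81 ± 0.17 on the log2 scale (limma adjusted p = 0.0114). Within the slides the differences were -0.60 and -0.87, neither past the threshold (adjusted p = 0.101 and 0.141). Astrocyte markers fell beside it: 8 of 16 were lower and 1, Gfap, was higher in APP/PS1 microglia (median -0.76; means of 6.57 to 7.85 in APP/PS1 samples and 7.14 to 8.49 in WT samples). Neuron markers were lower for 6 of 11 and higher for none (median -0.47; means of 4.95 to 6.59 in APP/PS1 samples and 6.201 to 6.97 in WT samples). The part of these markers in the Ppp1r3g difference was not tested.

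The remaining genes did not pass in microglia. Ppp1r3d differed by -0.24 ± 0.14 (limma adjusted p = 0.286), lower on 7 of 7 arrays, with 8.20 to 9.38 in APP/PS1 microglia and 8.66 to 9.70 in WT microglia. It passed without astrocyte replicate 3 (-0.26, adjusted p = 0.0287). Pygm differed by -0.17 ± 0.09, Ugp2 by -0.08 ± 0.11, Gbe1 by -0.07 ± 0.09 and Pygb by 0.01 ± 0.15. The ranges of these 4 genes overlapped between the genotypes.

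Pygl turned on 1 sample. It had 10.34 to 10.90 with a median of 10.55 in APP/PS1 microglia, against 8.97 to 11.51 with a median of 9.55 in WT microglia. The WT maximum was replicate 3, and the other 6 WT samples lay at 8.97 to 9.87, below every APP/PS1 sample. The difference was 0.83 ± 0.27 over all arrays (limma adjusted p = 0.0534) and 1.12 without the array of replicate 3 (limma adjusted p = 9.21e-04). Without astrocyte replicate 4, which shares the estimate of the spread, it was 0.85 (adjusted p = 0.0447). WT replicate 3 also had the highest mean of 7 neutrophil markers, a list added after the values were seen, at 13.80, against 5.37 to 7.66 in the other 13 microglia samples. Its S100a8, a calcium-binding protein gene of neutrophils, was at 16.47, against 7.07 to 10.07 in the others. Neutrophils are known to hold glycogen and the liver form of phosphorylase, and the part of these transcripts in the Pygl value was not tested.

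**Figure D4:**
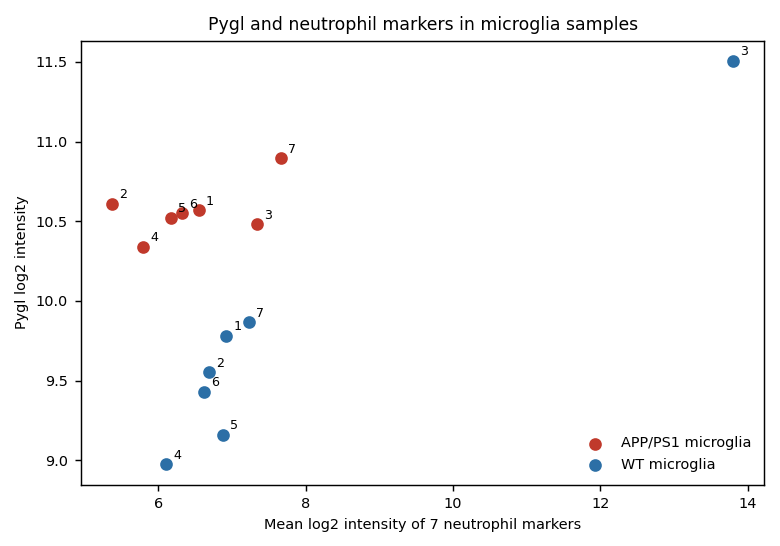
Pygl log2 intensity (vertical axis) against the mean log2 intensity of 7 neutrophil markers (horizontal axis) in 7 APP/PS1 (red) and 7 WT (blue) microglia samples, numbered by replicate. WT replicate 3 stands alone at 11.51 and 13.80, and the other WT samples lie at 8.97 to 9.87 on the Pygl axis, below all APP/PS1 samples.

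The genotype effects were compared between the cell types with an interaction term, the astrocyte difference minus the microglia difference. Leaving Ppp1r3g aside, it passed for 6 of 8 genes, 5 of them lower and 1 higher, against 26.6% of all genes, 13.2% lower and 13.4% higher. The value of Ppp1r3g, -1.42 ± 0.27, is a description, since its astrocyte difference was known when the genes were chosen. For Ppp1r3c, which was dim in WT microglia, and for Gys1 the 2 cell types went in opposite directions. The astrocyte call of Ppp1r3c was narrow (limma adjusted p = 0.0412) and did not hold when any single astrocyte array was left out. The interaction was -1.97 ± 0.24 (limma adjusted p = 4.38e-04) for Ppp1r3c and -1.44 ± 0.15 (limma adjusted p = 1.94e-04) for Gys1. It was -1.34 ± 0.24 for Ppp1r3d (adjusted p = 0.00274 by limma), -0.92 ± 0.19 for Ugp2 (adjusted p = 0.00586) and -0.51 ± 0.15 for Pygm (adjusted p = 0.0266). The Pygm call was lost without astrocyte replicate 2, 3 or 4 or microglia replicate 2 (adjusted p between 0.0512 and 0.0922). Gbe1 was the one with a positive interaction, 0.53 ± 0.15 (limma adjusted p = 0.0246), lost without astrocyte replicate 2 (0.42, adjusted p = 0.0901) or 4 (0.46, adjusted p = 0.0719). Pygb (-0.66 ± 0.25, adjusted p = 0.0766) and Pygl (-1.26 ± 0.44, adjusted p = 0.0599) did not pass with limma, but Pygl did so without microglia replicate 3 (-1.55, adjusted p = 0.00168) and Pygb without astrocyte replicate 3 (-0.92, adjusted p = 0.00815) or on the arrays matched in Eif2s3y (-0.94, adjusted p = 0.0487).

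Other genes of glycogen handling were measured for 23 of 25 listed, and in astrocytes 7 of the 23 were lower and 3 higher in APP/PS1 cells (median -0.06). These are 30.4% and 13.0% of the list, against 18.0% lower and 15.4% higher over all genes, so the share of higher genes was no larger than that of all genes. The lower ones included 4 of the phosphorylase kinase genes, whose enzyme activates phosphorylase: Phka1 (-1.22 ± 0.14), Phkg1 (-1.03 ± 0.19), Phkg2 (-0.70 ± 0.11) and Phkb (-0.40 ± 0.12). Pgm1, an enzyme that interconverts glucose 1-phosphate and glucose 6-phosphate, had 12.89, 13.51, 14.77 and 13.45 in APP/PS1 astrocytes, against 15.16, 15.51, 15.50 and 15.43 in WT astrocytes. It fell by 1.74 ± 0.18 on the log2 scale (limma adjusted p = 1.88e-04), with APP/PS1 replicate 3 again nearest to WT. Nhlrc1, whose ubiquitin ligase malin limits glycogen build-up and is lost in Lafora disease, fell by 1.52 ± 0.21, while its second probe (-0.55, adjusted p = 0.0765 by limma) did not pass. Gaa, the lysosomal enzyme that degrades glycogen, fell by 1.12 ± 0.12.

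The 3 that rose in astrocytes were Stbd1, a glycogen-binding protein gene, by 2.11 ± 0.33, Ppp1cb, a catalytic subunit of protein phosphatase 1, by 1.08 ± 0.13, and Pgm2l1, which makes glucose 1,6-bisphosphate, by 0.70 ± 0.16. A dimmer probe of Pgm2l1 gave 0.54 and did not pass (limma adjusted p = 0.127). Stbd1 had 8.87, 8.24, 6.35 and 8.05 in APP/PS1 astrocytes, against 6.71, 5.54, 3.30 and 7.53 in WT astrocytes. Its groups overlapped, but it was higher on 4 of 4 arrays. In WT cells Stbd1 was lower in astrocytes than in microglia (-1.94 ± 0.54). The other targeting subunits Ppp1r3a, Ppp1r3b, Ppp1r3e and Ppp1r3f did not pass in either cell type.

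In microglia 2 of these 23 genes were higher and 1 lower, 13.0% of the list against 19.7% of all genes, so the list as a whole did not exceed all genes there. Glycogenin, the protein that primes a new glycogen particle, is encoded by Gyg, which lay at 12.35 to 12.69 with a median of 12.49 in APP/PS1 microglia, against 11.17 to 11.69 with a median of 11.45 in WT microglia. The groups did not overlap. Gyg rose by 1.06 ± 0.07 (limma adjusted p = 8.00e-06), and its second probe gave 1.05. In astrocytes its difference was 0.25 ± 0.09 (limma adjusted p = 0.0557). Pgm1 rose by 0.59 ± 0.14 in microglia, opposite to its fall in astrocytes, and the interaction was -2.33 ± 0.22 (limma adjusted p = 1.26e-04). The phosphatase catalytic subunit gene Ppp1ca fell by 0.29 ± 0.07. Probes disagreed for 3 genes in microglia: a dimmer probe of Gaa passed (0.63), both dimmer probes of Gsk3b did (-0.33 and -0.36), and 1 of the 2 dimmer probes of Ppp1cc did (0.19), while their main probes did not.

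**Figure D5:**
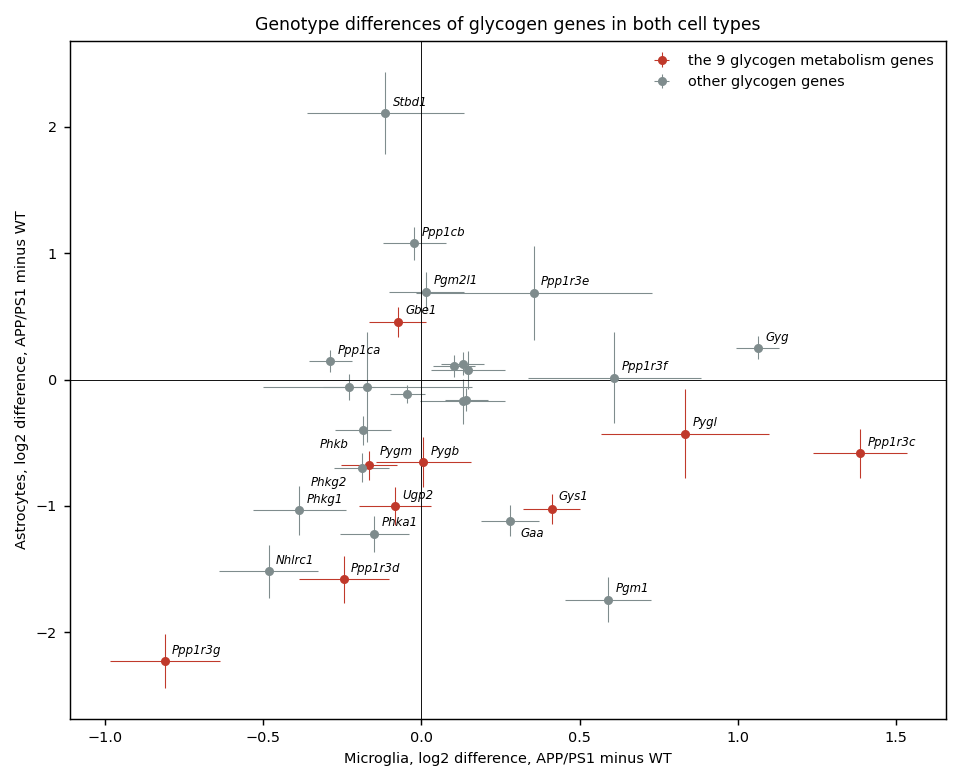
Log2 difference, APP/PS1 minus WT, in astrocytes (vertical axis) against microglia (horizontal axis) for the 9 glycogen metabolism genes (red) and 22 of the 23 other glycogen genes (grey); bars are standard errors, genes within 0.25 of 0 in both cell types have no name, and Gys2, blank in most microglia samples, is left out. Ppp1r3c (-0.58 and 1.39), Gys1 (-1.03 and 0.41) and Pgm1 (-1.74 and 0.59) are lower in astrocytes and higher in microglia.

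Receptors whose signals are known to act on glycogen in astrocytes, for noradrenaline, vasoactive intestinal peptide, PACAP, adenosine and insulin, were measured for 5 of 10 listed genes. In astrocytes the noradrenaline receptor Adra1b fell by 0.73 ± 0.11 and the PACAP receptor Adcyap1r1 by 0.86 ± 0.26. Vipr2 rose by 1.33 ± 0.31, and so did the main probe of Vipr1, by 1.23 ± 0.24. A dimmer probe of Vipr1 gave -0.42 (limma adjusted p = 0.0156), so its direction depends on the probe. On the main probe of Vipr1, WT astrocytes had 4.31 to 6.95 and lay below WT microglia (-4.50 ± 0.35, astrocytes minus microglia). The part of the higher microglia markers of APP/PS1 astrocyte samples in this rise was not tested. In microglia the main probe of Vipr1 fell by 1.09 ± 0.18 and the dimmer one gave -0.23 (adjusted p = 0.0846 by limma), and the main probe of the insulin receptor gene Insr did not pass in either cell type (-0.28 ± 0.09 in microglia, limma adjusted p = 0.0566). Its 2 dimmer probes were lower in APP/PS1 microglia on 7 of 7 arrays and passed there, at -0.48 (limma adjusted p = 0.016) and -0.56 (limma adjusted p = 0.00914). For Adra1b in astrocytes a dimmer probe gave -0.62 (adjusted p = 0.0807), and for Vipr2 1 of 2 dimmer probes passed (1.14).

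Over the 8 astrocyte samples the 5 of 21931 genes whose values followed Ppp1r3g most closely were Lrrc24, E2f3, Scarb2, Elmod3 and Ndufc2, with Pearson r from 0.994 to 0.997. Of the other glycogen genes in the set, Ppp1r3d (r = 0.992) ranked 19, Ugp2 (0.990) ranked 33 and Gys1 (0.976) ranked 277. Pygm (0.890, rank 2144), Pygl (0.823, rank 3163), Ppp1r3c (0.779, rank 3707) and Pygb (0.571, rank 6088) followed it less closely, and Gbe1 ran opposite (-0.731). Over the 14 microglia samples Ppp1r3c was followed most closely, among 16370 genes, by Vma21, Abcb1b, Tmem159, B230217C12Rik and 1190005I06Rik, with r from 0.977 to 0.984. Gys1 came at r = 0.773, rank 1465. The other members with a value in every microglia sample ran from 0.507 (Ugp2, rank 6232) to -0.263 (Pygm, rank 15232). These coefficients describe the samples, which share arrays and the genotype difference, and they carry no p-value.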

How the data were processed

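Transcripts were measured in 22 samples on 11 dual-colour arrays, per the labels. The authors deposited log2 intensities, 1 column per channel; limma is named in the submitters' processing notes, and how background was corrected or arrays normalized is not given in the sources used here. Column medians lay between 6.24 and 6.26, and a change common to all genes would be hidden. Values existed for 42427 to 42869 of 43020 probes on astrocyte arrays and 32045 to 40771 on microglia arrays. Blank values were left out of the fits. Of the probes, 33026 carried 1 gene symbol and 9994 none.

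Genotype effects were fitted on all 22 samples with limma 3.58.1 in R 4.3.3, with fixed terms for array and dye and a genotype term within each cell type. P-values are two-sided, adjusted by Benjamini-Hochberg over all genes, and called under 0.05. WT astrocytes and WT microglia were compared with array as a random block (statmod 1.5.0). The labels pair the samples of an array; the deviations of paired samples correlated at 0.367 to 0.632 in microglia and 8e-04 to 0.497 in astrocytes. Replicates are described as separate samples. Genotype p-values measure how far the within-array differences spread from array to array, with 1 spread per gene shared by both cell types. P-values of the cell type comparison measure the spread between samples. The fitting code was tested on simulated data.

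The members and gene lists were chosen with earlier results of these data known. Named genes are the 9 members on every probe, those of the listed glycogen and receptor genes past the threshold in either cell type, and the 5 genes most like the member with the largest genotype difference in each cell type. As alternatives, the array term was dropped or made random, the dye term was dropped, columns were quantile-normalized, probes of a gene were averaged, dimmer genes or genes with blanks were left out, cell types or slides were fitted alone, and each array was left out in turn. Matching arrays in Eif2s3y was added after seeing the data. Promoters are from RefSeq.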

Additional observations from a re-analysis of the deposited data

Results flagged for a closer look

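Among the 36 groups of samples examined (9 genes, 2 genotypes, 2 cell types), 5 held a sample far from the others, where chance gives about 1 in 20. In APP/PS1 astrocytes, Gys1 in replicate 3 was 10.84, with the other 3 samples at 10.04 to 10.14. In WT astrocytes, Ppp1r3g in replicate 1 was 13.10, with the others at 13.86 to 14.01. In WT microglia, replicate 4 was low for Gys1 (7.52, others 7.93 to 8.24) and for Pygb (7.73, others 8.67 to 8.98), and replicate 3 was high for Pygl (11.51, others 8.97 to 9.87).

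The interaction term, astrocyte difference minus microglia difference, passed for 6 of the 8 genes other than Ppp1r3g, against 26.6% of all genes. They were Ppp1r3c (-1.97), Gys1 (-1.44), Ppp1r3d (-1.34), Ugp2 (-0.92), Pygm (-0.51) and Gbe1 (0.53). The value of Ppp1r3g (-1.42) is a description. Under the fit without the array block, 3 of the 7 passed, with Ppp1r3g counted among the 7.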

How the results depend on the processing

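Of 690 values of the 9 genes under alternatives, 626 kept their direction and side of the threshold, 41 lost a call, 16 gained one and 7 changed sign. The sign changes were all Pygb in microglia (0.01): -0.0225 with no dye term, -0.0072 with each cell type fitted alone, -0.142 within slide 2, and -0.0873 to 0.0987 over the left-out arrays. Without the replicate block (array), genes called fell to 2447 of 7515 in astrocytes, 1184 of 4404 in microglia and 1491 of 5952 for the interaction, and the 9 genes' calls, Ppp1r3g included, to 5 of 8, 1 of 3 and 3 of 7; Ppp1r3c (adjusted p = 0.398), Pygb (0.117) and Gbe1 (0.238) were lost in astrocytes, and Ppp1r3g (0.441) and Gys1 (0.161) in microglia. With each cell type fitted alone, which leaves fewer residual degrees of freedom, 2819 genes and 4 members, Ppp1r3g included, passed in astrocytes, and Ppp1r3c (adjusted p = 0.0722), Pygb (0.131), Pygm (0.0683) and Gbe1 (0.141) were lost. Within slide 1, 972 genes and 1 member passed in microglia with limma; within slide 2, with 3 arrays, 0 genes and 0 members did (5003 genes and 4 members at an unadjusted p under 0.05). With arrays matched in Eif2s3y, 4451 genes passed in astrocytes and 3865 for the interaction, and Ppp1r3c in astrocytes was lost (-0.78, adjusted p = 0.101). With slide as a random block 7261 of 11940 genes differed between the cell types. Leaving out single arrays left 5 to 8 members called in astrocytes, the 5 without replicate 2 or 4, 3 to 4 in microglia and 5 to 8 for the interaction. Ppp1r3g is included in each of these counts. Over all genes the same fits called 5514 to 7527 in astrocytes, 3300 to 4620 in microglia and 4393 to 5943 for the interaction. Pygl in microglia passed with array as a random block (adjusted p = 0.00697), among brighter genes (0.0183) and among complete genes (0.031). The cause of these changes was not tested. Shared blanks on microglia arrays limit dim probes such as that of Ppp1r3g.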
